A study of Lolium multiflorum with 4 samples.

Results

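In Italian ryegrass (Lolium multiflorum), 292 assembled transcripts (contigs) exceeded LmLC seedlings by 2-fold or more in LmHC seedlings both at 24 h of cadmium and before it. They were 0.412% of the 70886 contigs whose mean level over the 4 libraries reached 1 FPKM (fragments per kilobase, corrected for the mapped total of each library), out of 111761 contigs in all. Contigs were chosen by that mean and by the line ratio, log2 of (FPKM + 1) in LmHC over (FPKM + 1) in LmLC, which had to reach 1 at each time. All 4 measured values thus went into the choice, and the line ratios below describe the contigs and are not tested. Because the pseudocount of 1 weighs on low values, every chosen contig has at least 1 FPKM in both LmHC libraries.

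Groups of 1 library each were compared: LmHC seedlings after 24 h in 300 µM cadmium chloride, LmHC seedlings at 0 h, LmLC seedlings after 24 h in 300 µM cadmium chloride and LmLC seedlings at 0 h. In the series design, HC in LmHC means high cadmium and LC in LmLC means low cadmium. They were read as separate plant lines from the seed material in the growth protocol, although in the labels a treatment tag carries these words, and the earlier names Dg for LmHC and Vm for LmLC stand there without explanation. All seedlings grew on agar, were moved to Hoagland nutrient solution at 7 days and were 2 weeks old when treatment began. For the tissue taken and the number of seedlings in a library, the sources used here give nothing. Column totals lay between 782476 and 795368 FPKM, and the relative depth read from low values of contigs outside clusters was 1.028 for LmHC over LmLC at 24 h and 0.986 at 0 h. With 1 library in a group there is no replicate spread, no p-value and no error on any value below, and a difference between the lines cannot be told apart from one between plants, tissue pieces or library preparations.

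Cadmium is a toxic metal with no known nutritional role in land plants. In grasses it enters roots largely through carriers for manganese, iron and zinc, among them NRAMP and ZIP family proteins. Inside cells it is bound by thiol-rich phytochelatins and moved into vacuoles by transporters that include heavy metal ATPases. Lolium multiflorum is an outcrossing grass, so seed lots hold many alleles of a gene. A de novo assembly may write the alleles, splice forms and copies of a gene as separate contigs, which it groups into clusters by similarity. The table names contigs by cluster and number (CL) or as stand-alone contigs (Unigene) and does not pair them with gene names or sequences, so none of the contigs below can be assigned to these transporters or to any other gene.

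By mean, most of the 292 contigs were at low levels, as were most expressed contigs, and most of the 292 were listed above 0 in LmLC at each time. In LmHC they had a median of 4.63 FPKM at 24 h (range 1.07 to 119.88) and 4.95 FPKM at 0 h (1.0 to 111.62). In LmLC the medians were 0.97 FPKM at 24 h (0 to 32.09) and 1.03 FPKM at 0 h (0 to 35.56). The values of the whole set therefore overlap between the lines, while each contig on its own is higher in LmHC. Over all expressed contigs the medians were 3.34 FPKM at 24 h and 3.05 FPKM at 0 h in LmHC. In LmLC they were 3.45 FPKM at 24 h and 3.05 FPKM at 0 h. The medians of the 292 thus lay above these in LmHC and below them in LmLC, and the choice bears on both. Listed at 0 in LmLC were 33 of the 292 at 24 h and 32 at 0 h, against 857 and 4053 of the 70886 expressed contigs. The choice itself favours low values in LmLC. Of the 292, 8 were listed at 0 in both LmLC libraries. Those 8 had 1.71 to 8.34 FPKM in LmHC at 24 h and 1.19 to 9.70 FPKM in LmHC at 0 h. At the other end, 97 of the 292 reached 1 FPKM in all 4 libraries. For the counts of 8 and 97 no share over all expressed contigs is given. In RNA from whole tissue, fewer cells of a type and less RNA per cell cannot be told apart.

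**Figure D1:**
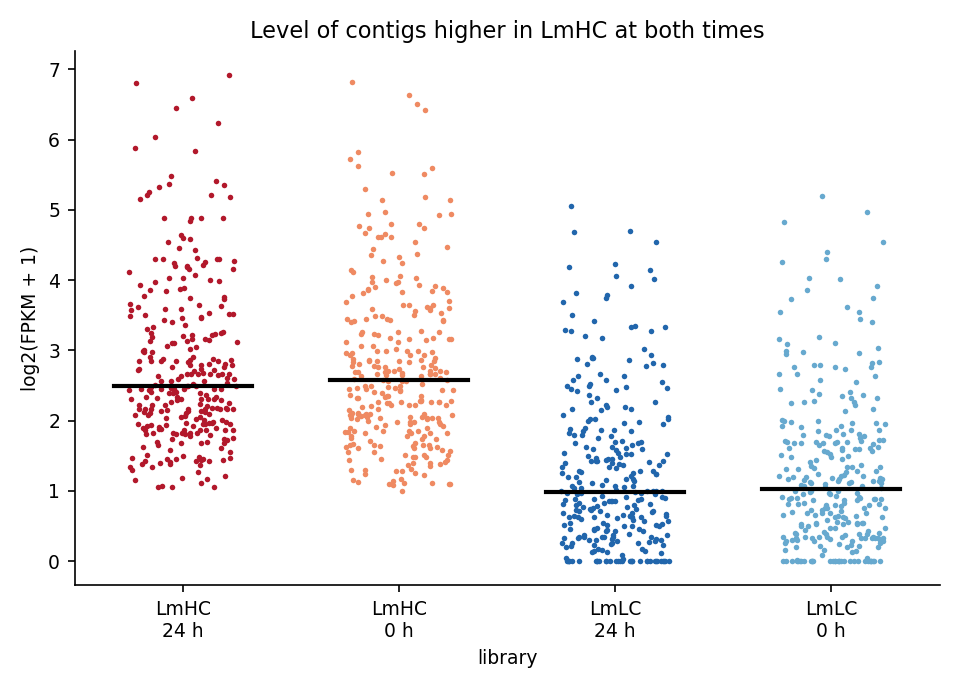
Level of each of the 292 contigs, as log2(FPKM + 1), in the 4 libraries. Each point is a contig, the horizontal scatter has no meaning and the black line is the median. The LmHC medians are 4.63 FPKM at 24 h and 4.95 FPKM at 0 h, against 0.97 and 1.03 FPKM in LmLC, and only LmLC holds contigs listed at 0.

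By mean level, 196 contigs (67.1%) lay at 1 to 5 FPKM, 79 (27.1%) at 5 to 20 FPKM and 17 (5.82%) at 20 FPKM or more. Among all expressed contigs these classes held 62%, 27.5% and 10.5%. The chosen contigs were 0.446%, 0.405% and 0.228% of the expressed contigs of these classes. The 17 contigs at a mean of 20 FPKM or more had medians of 43.51 FPKM in LmHC at 24 h and 45.07 FPKM in LmHC at 0 h, against 9.16 FPKM in LmLC at 24 h and 13.50 FPKM in LmLC at 0 h.

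Unigene3399_All had the highest mean level of the 292. It had 119.88 FPKM at 24 h and 111.62 FPKM at 0 h in LmHC, against 24.77 FPKM at 24 h and 13.50 FPKM at 0 h in LmLC. Both LmHC values lie far above both LmLC values, with line ratios of 2.23 at 24 h and 2.96 at 0 h on the log2 scale, and within LmHC the times differ little. Next came CL9743.Contig3_All, with 64.31 FPKM at 24 h and 84.47 FPKM at 0 h in LmHC, against 25.00 FPKM at 24 h and 35.56 FPKM at 0 h in LmLC. Its line ratios are smaller, 1.33 at 24 h and 1.23 at 0 h, and its level was lower at 24 h in both lines.

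The line ratio had a median of 1.40 at 24 h (highest 3.22) and 1.36 at 0 h (highest 3.48) over the 292 contigs, against -0.02 and 0.00 over all expressed contigs. Much of the set lies near the limit: the smaller of a contig's 2 line ratios had a median of 1.21, it was under 1.5 for 232 contigs, and it reached 4-fold for 13. The 2 line ratios of a contig lay within 0.5 of each other for 197 contigs. The ratio was larger at 24 h for 154 contigs and larger at 0 h for 138. These counts are not given over all expressed contigs, so they only describe the 292. The 24 h ratio minus the 0 h ratio had a median of 0.01 over the 292, against -0.04 over all expressed contigs.

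CL7329.Contig2_All had the largest smaller ratio. It had 6.25 FPKM at 24 h and 6.23 FPKM at 0 h in LmHC and was listed at 0 in both LmLC libraries. CL5813.Contig2_All followed, with 10.94 FPKM at 24 h and 25.66 FPKM at 0 h in LmHC, against 1.06 FPKM at 24 h and 2.95 FPKM at 0 h in LmLC, and line ratios of 2.54 at 24 h and 2.75 at 0 h. This contig was lower at 24 h in both lines while the lines stayed apart.

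At 24 h alone, the largest ratios were those of CL1332.Contig5_All and Unigene11996_All. CL1332.Contig5_All had 8.34 FPKM at 24 h and 2.53 FPKM at 0 h in LmHC and was listed at 0 in both LmLC libraries. Unigene11996_All had 57.77 FPKM at 24 h and 26.77 FPKM at 0 h in LmHC, against 5.34 FPKM at 24 h and 8.13 FPKM at 0 h in LmLC. Its line ratio was 3.21 at 24 h and 1.60 at 0 h, since its level was higher at 24 h in LmHC and lower at 24 h in LmLC.

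At 0 h alone, the largest ratios were those of CL7050.Contig1_All and CL3384.Contig2_All. CL7050.Contig1_All had 5.31 FPKM at 24 h and 10.25 FPKM at 0 h in LmHC, against 1.10 FPKM at 24 h and 0.01 FPKM at 0 h in LmLC. CL3384.Contig2_All had 2.88 FPKM at 24 h and 9.70 FPKM at 0 h in LmHC and was listed at 0 in both LmLC libraries. Both were lower at 24 h than at 0 h in LmHC, and the line ratio of CL7050.Contig1_All was 1.59 at 24 h and 3.48 at 0 h.

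Contigs at the limit show how fine the choice is. Just inside it, Unigene17459_All had 28.60 FPKM at 24 h and 1.46 FPKM at 0 h in LmHC, against 6.00 FPKM at 24 h and 0.23 FPKM at 0 h in LmLC. Unigene35429_All had 4.61 FPKM at 24 h and 1.00 FPKM at 0 h in LmHC, against 0.94 FPKM at 24 h and a listed 0 at 0 h in LmLC. In both of them the 0 h ratio sits at the limit. Just outside it, CL13342.Contig3_All had 19.80 FPKM at 24 h and 2.65 FPKM at 0 h in LmHC, against 4.39 FPKM at 24 h and 0.83 FPKM at 0 h in LmLC. CL12881.Contig1_All, the next outside, had 4.71 FPKM at 24 h and 1.79 FPKM at 0 h in LmHC, against 0.04 FPKM at 24 h and 0.40 FPKM at 0 h in LmLC. A pseudocount of 5 in place of 1 left 29 of the 292, and a pseudocount of 0.1 gave 1589 contigs, which include all 292.

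**Figure D2:**
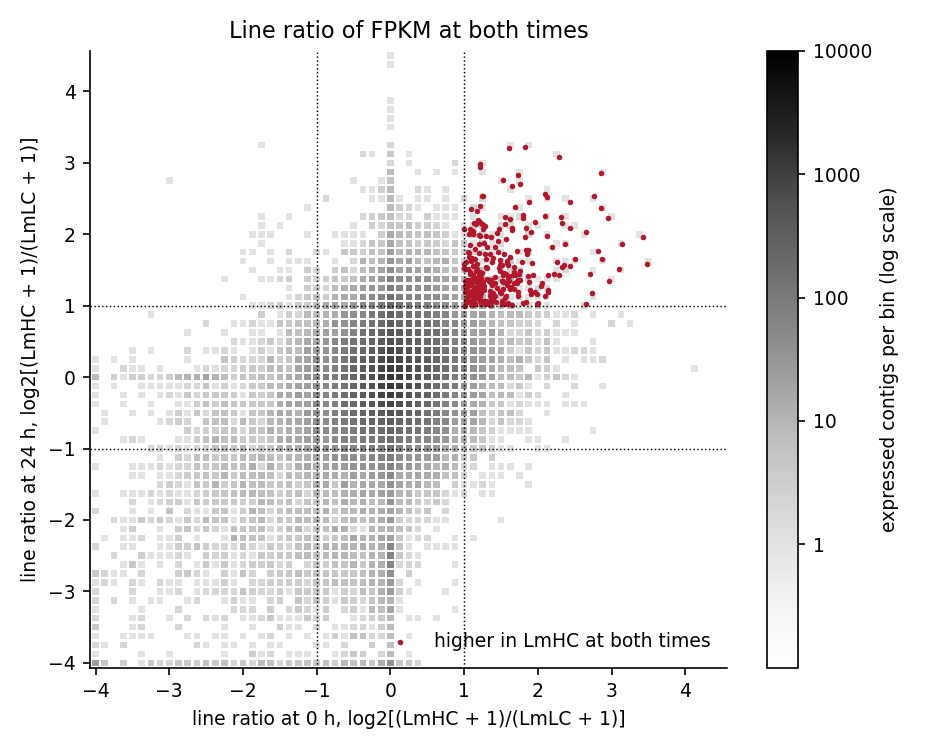
Line ratio, log2 of (FPKM + 1) in LmHC over (FPKM + 1) in LmLC, at 24 h (vertical) against 0 h (horizontal). Grey squares count the 70886 expressed contigs on a log scale, with values beyond the axes drawn at the edge, red points are the 292 contigs and dotted lines mark 2-fold. The red points crowd at the corner of the limits, with a median smaller ratio of 1.21.

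The 2 line comparisons share no library, but they share the assembly and the filter on the mean of all 4 libraries. The contigs that pass at both times are set beside those that pass at each as a description, not a test. At 24 h, 3159 expressed contigs (4.46%) passed toward LmHC, and the 292 were 9.24% of them. At 0 h there were 1761 (2.48%), and the 292 were 16.6% of them. The share that passed at both times differed with the level. It was 7.99% of the 24 h list and 14.2% of the 0 h list at a mean of 1 to 5 FPKM, 13.8% and 25.6% at 5 to 20 FPKM, and 12.5% and 23.3% at 20 FPKM or more. Of the 2867 contigs that passed at 24 h only, 56.5% had a ratio above 0 at 0 h. Their median ratio there was 0.09, against 0.00 over all expressed contigs. Of the 1469 that passed at 0 h only, 63.3% had a ratio above 0 at 24 h. Their median there was 0.20, against -0.02 over all expressed contigs. By definition both sets leave out contigs with a ratio of 1 or more at the other time, which lowers these shares and medians. In the opposite direction 1463 contigs (2.06%) were at least 2-fold lower in LmHC than in LmLC at both times, 28.9% of the 5056 such contigs at 24 h (7.13% of all expressed) and 46.6% of the 3139 at 0 h (4.43%). They differed from the 292 in their lower side: in LmHC they had medians of 0.07 FPKM at 24 h and 0.06 FPKM at 0 h, with 713 listed at 0 at 24 h and 715 at 0 h.

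The next comparison asks whether the 292 contigs moved between 0 h and 24 h of cadmium. Most did not pass 2-fold: 162 (55.5%) stayed within it in both lines, against 31.5% of all expressed contigs. In LmHC 57 contigs (19.5%) were higher at 24 h by 2-fold or more and 59 (20.2%) lower by as much, against 28.2% and 27.6% of all expressed contigs. In LmLC 46 (15.8%) were higher and 45 (15.4%) lower, against 29.3% and 24.8% of all expressed contigs. The choice itself bears on these shares, since it needs 1 FPKM at both times in LmHC. In LmLC the 292 lay near the pseudocount of 1, with medians of 0.97 FPKM at 24 h and 1.03 FPKM at 0 h. That understates their changes in LmLC, and the contigs compared next were not matched for their LmLC level. Among the 43791 contigs at 1 FPKM or more in both LmHC libraries, 16.7% were higher and 30.1% lower in LmHC, 17.3% were higher and 27.9% lower in LmLC, and 42% stayed within 2-fold in both lines. The median change was -0.10 in LmHC and -0.03 in LmLC for the 292, and -0.20 in LmHC and -0.14 in LmLC for all expressed contigs. The 4 libraries include no untreated one at 24 h, so the effects of cadmium and of time cannot be told apart.

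The balance of higher and lower contigs depended on the scaling. Median-of-ratios scaling moved the median change of all expressed contigs to 0.02 in LmHC and 0.08 in LmLC. The median change of the 292 moved to 0.24 in LmHC and 0.03 in LmLC. Of the 292, 80 were then higher and 28 lower at 24 h in LmHC, and 54 higher and 37 lower in LmLC. The higher contigs were thus 74.1% of those past 2-fold in LmHC, against 49.1% as deposited, and 59.3% in LmLC, against 50.5% as deposited. With a pseudocount of 5, 26 were higher and 20 lower in LmHC, and 17 higher and 11 lower in LmLC. For neither setting are the shares over all expressed contigs given, so these splits cannot be read as particular to the 292.

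**Figure D3:**
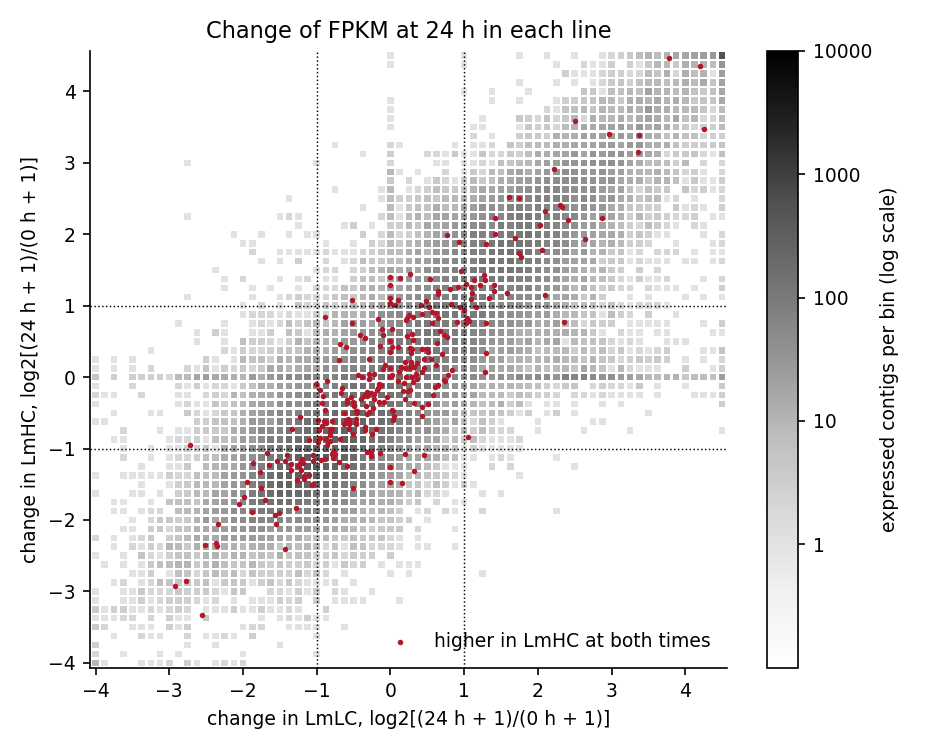
Change at 24 h, log2 of (FPKM + 1) at 24 h over (FPKM + 1) at 0 h, in LmHC (vertical) against LmLC (horizontal). Grey squares count the 70886 expressed contigs on a log scale, with values beyond the axes drawn at the edge, red points are the 292 contigs and dotted lines mark 2-fold. The red points lie along the diagonal, with 37 past 2-fold upward and 40 past 2-fold downward in both lines.

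In both lines 37 of the 292 (12.7%) passed 2-fold upward at 24 h and 40 (13.7%) downward, against 23.3% and 17.9% of all expressed contigs and 13.3% and 20.7% of those at 1 FPKM or more in both LmHC libraries. None of the 292 passed 2-fold in opposite directions, as did 0.116% of all expressed contigs. The change had the same sign in both lines for 237 of the 292 (81.2%), against 87.6% of all expressed contigs. Among those at 1 FPKM or more in both LmHC libraries it was 87.4%. A change of 0 in a line was not counted as the same sign. In LmHC alone 20 (6.85%) passed upward and 19 (6.51%) downward, against 4.92% and 9.62% of all expressed contigs. In LmLC alone 9 (3.08%) passed upward and 5 (1.71%) downward, against 5.93% and 6.91%. Among contigs at 1 FPKM or more in both LmHC libraries these shares were 3.41% and 9.44% in LmHC alone, and 4.05% and 7.25% in LmLC alone. The LmLC values of the 292 lay near the pseudocount, which understates their changes. Requiring a line ratio of at least 1 at both times ties the change in one line to that in the other, so likeness of the changes is partly built into the set. The 37 had medians of 17.35 FPKM at 24 h and 2.95 FPKM at 0 h in LmHC, against 4.95 FPKM at 24 h and 0.33 FPKM at 0 h in LmLC. The 40 had medians of 3.36 FPKM at 24 h and 13.17 FPKM at 0 h in LmHC, against 0.56 FPKM at 24 h and 4.17 FPKM at 0 h in LmLC. Among the 37 the median in LmLC at 24 h lay above that in LmHC at 0 h, and among the 40 the median in LmHC at 24 h lay below that in LmLC at 0 h.

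Unigene24117_All was raised most in LmHC. It had 86.36 FPKM at 24 h and 2.95 FPKM at 0 h in LmHC, against 15.70 FPKM at 24 h and 0.22 FPKM at 0 h in LmLC, a log2 change of 4.47 in LmHC and 3.77 in LmLC. Unigene13790_All was among the most raised in each line. It had 111.07 FPKM at 24 h and 4.45 FPKM at 0 h in LmHC, against 22.38 FPKM at 24 h and 0.27 FPKM at 0 h in LmLC, a log2 change of 4.36 in LmHC and 4.20 in LmLC. Both were low at 0 h and high at 24 h in both lines, and LmHC was the higher line at each time. CL1075.Contig7_All was raised most in LmLC, with 95.60 FPKM at 24 h and 7.69 FPKM at 0 h in LmHC, against 32.09 FPKM at 24 h and 0.73 FPKM at 0 h in LmLC.

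Unigene14525_All was lowered most in LmHC. It had 1.71 FPKM at 24 h and 26.19 FPKM at 0 h in LmHC, against a listed 0 at 24 h and 4.86 FPKM at 0 h in LmLC. CL13209.Contig1_All was among the most lowered in each line, with 5.97 FPKM at 24 h and 51.97 FPKM at 0 h in LmHC, against 2.09 FPKM at 24 h and 22.34 FPKM at 0 h in LmLC. Its log2 change of -2.93 in LmHC and -2.92 in LmLC left the line ratio at 1.17 at 24 h and 1.18 at 0 h. CL9401.Contig2_All, the next most lowered in LmLC, had 2.52 FPKM at 24 h and 24.53 FPKM at 0 h in LmHC, against 0.70 FPKM at 24 h and 10.62 FPKM at 0 h in LmLC.

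The change differed between the lines by at least 2-fold for 25 contigs. It was larger toward LmHC for 15 of the 292 (5.14%) and toward LmLC for 10 (3.42%), against 6.7% and 8.12% of all expressed contigs and 4.31% and 4.8% of those at 1 FPKM or more in both LmHC libraries. With median-of-ratios scaling the numbers were 25 toward LmHC and 7 toward LmLC. This difference equals the line ratio at 24 h minus that at 0 h, so it draws on all 4 libraries and on the values that chose the contigs. Among the 15, 9 passed 2-fold upward at 24 h in LmHC and 1 did in LmLC, while 0 passed downward in LmHC and 1 in LmLC. Among the 10, 7 passed 2-fold downward at 24 h in LmHC and 0 did in LmLC, while 0 passed upward in LmHC and 3 in LmLC. Unigene3484_All had the largest difference toward LmHC, with 11.69 FPKM at 24 h and 23.52 FPKM at 0 h in LmHC, against 0.61 FPKM at 24 h and 9.58 FPKM at 0 h in LmLC. CL10112.Contig1_All had the next, with 11.25 FPKM at 24 h and 5.84 FPKM at 0 h in LmHC, against 0.60 FPKM at 24 h and 1.95 FPKM at 0 h in LmLC. The first was lower at 24 h in both lines and further down in LmLC, and the second was higher at 24 h in LmHC and lower at 24 h in LmLC. Toward LmLC, the largest was that of CL7050.Contig1_All, given above, and the next was that of CL344.Contig4_All, at 1.53 FPKM at 24 h and 5.30 FPKM at 0 h in LmHC, against 0.25 FPKM at 24 h and a listed 0 at 0 h in LmLC.

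The last comparison asks whether the line difference of a contig holds for its whole cluster. Of the 292 contigs, 151 (51.7%) belonged to a cluster and 141 stood alone, against 60.7% in clusters among all expressed contigs. The clustered ones had a median line ratio of 1.37 at 24 h and 1.37 at 0 h, and the stand-alone ones 1.43 and 1.35. The clustered ones lay in 141 clusters, 10 of which held 2 of them and 0 held more. Clusters with such a contig had a median of 6 contigs, against 3 over all 15237 clusters.

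For most clusters the difference was under 2-fold once all contigs were summed. FPKM summed over a cluster was at least 2-fold higher in LmHC at both times for 13 of the 141 (9.22%), at 24 h only for 12, at 0 h only for 6 and at neither time for 110 (78%). Among all 14193 clusters with a mean sum of at least 1 FPKM, 31 (0.218%) passed at both times, and 18 of those 31 held none of the 292. The summed ratio had a median of 0.27 at 24 h and 0.27 at 0 h, against -0.04 and 0.03 over all those clusters. It was above 0 at both times for 86 clusters (61%, against 25.9% of all those clusters), below 0 at both times for 19 and of unlike sign for 36. Neither count is an independent result, because each sum contains the chosen contig. With a pseudocount of 5, 1 cluster kept the difference, and with only contigs at a mean of 5 FPKM or more chosen, 2 of 59 did. In the opposite direction, 98 of the 738 clusters (13.3%) that hold a contig at least 2-fold lower in LmHC at both times kept that difference in the sum, against 0.93% of all clusters with a mean sum of at least 1 FPKM.

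Cluster size went with the outcome. Of 58 clusters with fewer than 5 contigs, 12 (20.7%) kept the difference, as did 1 of 32 with 5 to 9 contigs and 0 of 51 with 10 or more. Among all 14193 clusters with a mean sum of at least 1 FPKM, 0.218% passed, and that share is not given by size. In the 13 that kept it, the chosen contigs made up a median of 91.6% of the cluster sum in LmHC at 24 h and 77.8% in LmHC at 0 h. In the other 128 they made up 13.5% and 13.6%. Each sum contains the chosen contig, which can weigh more in a small cluster, so the trend with size is partly built into the choice. In 1 of the 13, CL9903, the table holds a single contig, so the sum is that contig.

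**Figure D4:**
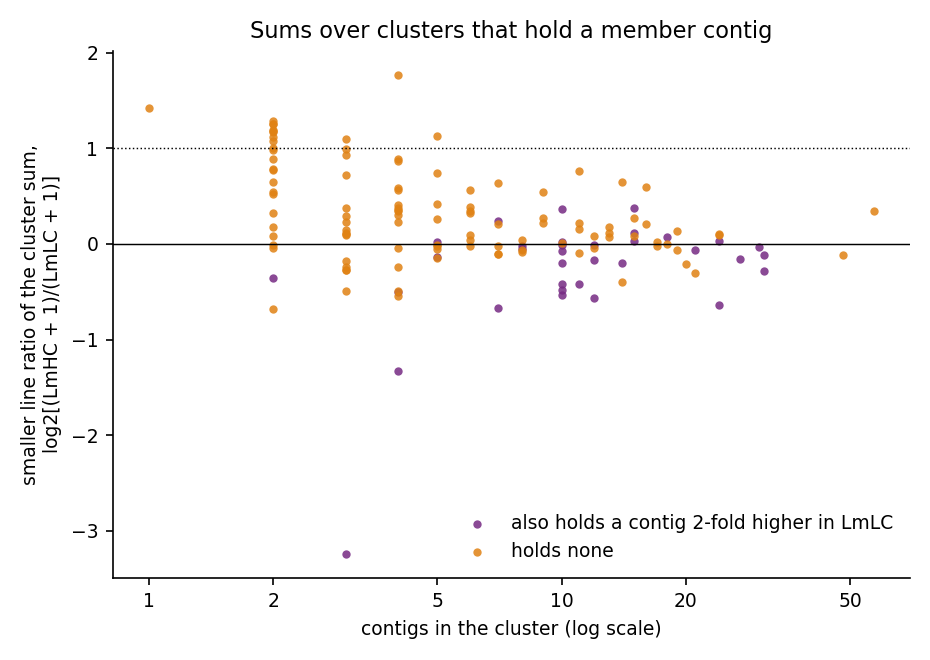
Smaller of the line ratios at 24 h and 0 h of the cluster sum, log2 of (FPKM + 1) in LmHC over (FPKM + 1) in LmLC, against the number of contigs in the cluster on a log scale, for the 141 clusters. Purple points are the 34 clusters that also hold a contig at least 2-fold lower in LmHC at both times, and the dotted line marks 2-fold. The 13 clusters on or above the dotted line have at most 5 contigs, and none of them is purple.

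The remaining contigs of these clusters were those that failed the rule. Expressed contigs at least 2-fold higher in LmHC at both times were thus taken out, while those 2-fold lower were left in. The choice therefore bears on the ratios of the remaining contigs, which are no independent result. They summed to a mean of at least 1 FPKM in 134 clusters. Their line ratio had a median of 0.04 at 24 h and 0.04 at 0 h. In 111 of the 134 clusters (82.8%) it stayed within 2-fold at both times. In 0 it was at least 2-fold higher in LmHC at both times and in 3 (2.24%) at least 2-fold lower. Among the full sums of all 14193 clusters with a mean sum of at least 1 FPKM, these shares were 0.218% and 0.93%. The line ratio of the remaining contigs was above 0 at both times in 47 clusters (35.1%, against 25.9% of those full sums). It was below 0 at both times in 38 and of unlike sign in 49.

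Some clusters held contigs of both kinds. In 34 of the 141 (24.1%), at least 1 other contig was at least 2-fold lower in LmHC at both times, against 4.84% of all clusters. This share was larger in larger clusters: it was 6.9% with fewer than 5 contigs, 18.8% with 5 to 9 and 47.1% with 10 or more, against 2.87%, 8.79% and 16.3% of all clusters of these sizes. The 34 clusters held 40 of the 292 contigs and 49 contigs of the opposite kind. Their sums had a median line ratio of -0.03 at 24 h and -0.01 at 0 h, lay within 2-fold at both times in 32 of them and kept the difference in 0. Of all 141 clusters, 108 lay within 2-fold at both times. The 34 were picked for holding contigs that differ in both directions, so sums near 0 are partly built into that choice. They had a median of 10 contigs, and none of the 141 clusters with 10 or more contigs kept the difference. Fragments that match more than 1 contig are split between those contigs by RSEM, so opposite values within a cluster depend on each other, and its part in these pairs was not tested.

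Ranked by the smaller of the summed ratios at 24 h and 0 h, CL6958 came first, with 7.04 FPKM at 24 h and 5.96 FPKM at 0 h in LmHC, against 1.07 FPKM at 24 h and 1.04 FPKM at 0 h in LmLC. CL6958.Contig2_All supplied most of the LmHC sums, with 6.16 FPKM at 24 h and 4.12 FPKM at 0 h in LmHC, against 0.82 FPKM at 24 h and 0.18 FPKM at 0 h in LmLC. The other 3 contigs of CL6958 summed to 0.88 FPKM at 24 h and 1.84 FPKM at 0 h in LmHC, against 0.25 FPKM at 24 h and 0.86 FPKM at 0 h in LmLC, under a mean of 1 FPKM. CL9903, next in this order, had 2.68 FPKM at 24 h and 4.10 FPKM at 0 h in LmHC, against 0.37 FPKM at 24 h and 0.34 FPKM at 0 h in LmLC.

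CL14135 came last in this order, although CL14135.Contig2_All is 1 of the 292. That contig had 3.60 FPKM at 24 h and 9.75 FPKM at 0 h in LmHC, against 0.10 FPKM at 24 h and 2.43 FPKM at 0 h in LmLC. The other 2 contigs of CL14135 were listed at 0 in both LmHC libraries and summed to 32.51 FPKM at 24 h and 98.25 FPKM at 0 h in LmLC. The chosen contig was thus seen in both lines and the other 2 in LmLC alone, and the sum of CL14135 was 3.60 FPKM at 24 h and 9.75 FPKM at 0 h in LmHC, against 32.61 FPKM at 24 h and 100.68 FPKM at 0 h in LmLC. CL7329, which holds the contig with the largest smaller ratio, was the next lowest. CL7329 summed to 24.97 FPKM at 24 h and 60.26 FPKM at 0 h in LmHC, against 64.38 FPKM at 24 h and 107.87 FPKM at 0 h in LmLC. The direction of the cluster is therefore opposite to that of CL7329.Contig2_All, with a summed ratio of -1.33 at 24 h and -0.83 at 0 h.

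**Figure D5:**
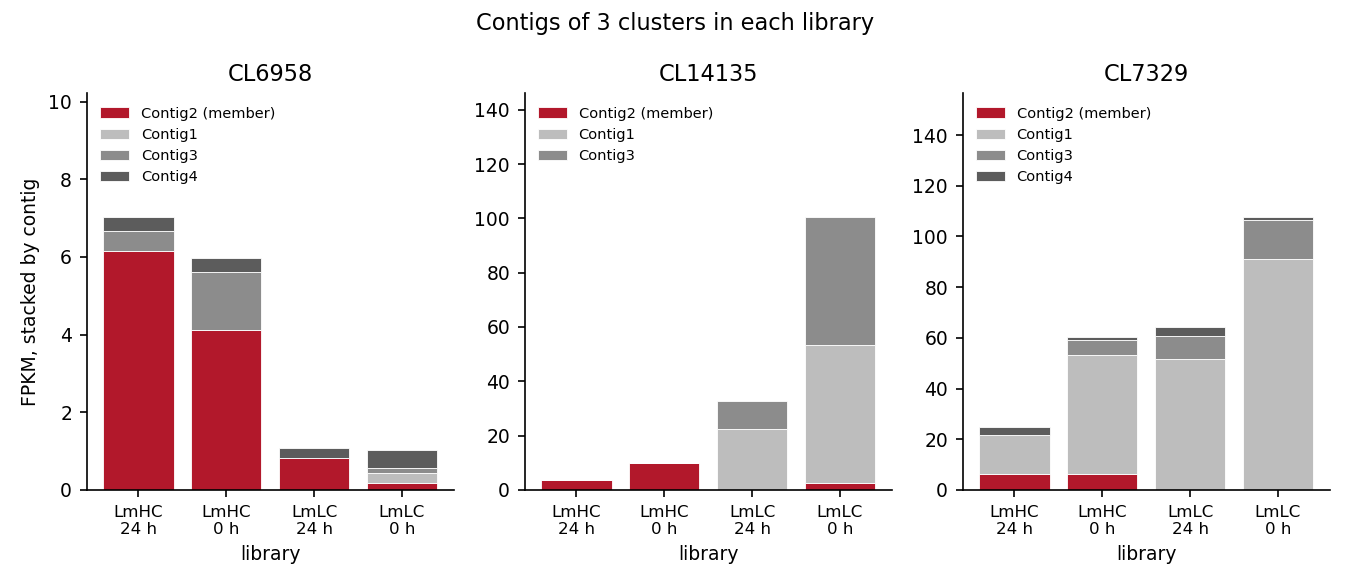
FPKM of each contig of CL6958, CL14135 and CL7329, stacked, in the 4 libraries. Red is the contig that is at least 2-fold higher in LmHC at both times and greys are the other contigs. In CL6958 the sum is higher in LmHC (7.04 and 5.96 FPKM, against 1.07 and 1.04 FPKM in LmLC), while in CL14135 and CL7329 the sums are lower in LmHC.

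The rest of each cluster, its sum without the contig itself, was set beside the contig's change with time. It had a mean of at least 1 FPKM for 144 of the 151 contigs and for 40429 clustered contigs among all those expressed. Of the 27 that passed 2-fold upward at 24 h in LmHC, the rest did too for 16 (59.3%), against 69.7% over all expressed clustered contigs that passed. Of the 35 that passed downward in LmHC, the rest did too for 21 (60%), against 64.9%. In LmLC the rest passed upward with 13 of 24 (54.2%), against 72.8%, and downward with 20 of 28 (71.4%), against 65.2%. The rest passed 2-fold in the opposite direction for 3 of the 27 raised in LmHC (11.1%), against 3.55% over all expressed clustered contigs. It did so for 0 of the other sets. Over all expressed clustered contigs these shares were 1.9% of those lowered in LmHC, 2.44% of those raised in LmLC and 1.82% of those lowered in LmLC. These shares are counts over contigs that share libraries and clusters, and the differences from all contigs were not tested.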

How the data were processed

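The authors deposited 1 table of FPKM values, with 111761 contigs as rows, a column for each of the 4 libraries and 2 decimals in each value. Bowtie2 2.2.5 and RSEM 1.2.8 were used, per the submitters' processing notes. For the assembler, contig lengths and filters, the sources used here give nothing. Libraries were made from oligo(dT)-selected RNA by random priming, per the labels' protocols. Samples were grouped by their titles, 1 library in each group.

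Line ratios and changes were computed as log2 of FPKM plus a pseudocount of 1, which understates differences of low contigs. A contig was called expressed at a mean of 1 FPKM or more and counted at a ratio of 2-fold or more, ties at the limit included. Cluster values are sums of FPKM over contigs with one CL name. Relative depth came from the most frequent log2 ratio between libraries among stand-alone contigs at 0.3 to 1.2 FPKM. The number of fragments in a library is unknown, so counting intervals could not be computed. No test was run, because each group had 1 library. Named contigs are the 2 with the largest line ratio at each time and at both, the 2 highest in mean level, the 2 at each end of each change and of their difference, and the 2 nearest the limit on either side. Named clusters are the 2 highest and the 2 lowest by the smaller of the summed ratios at both times. The contigs and lists were chosen with earlier results of these data known. Alternatives were other pseudocounts, scalings, mean minima and a 4-fold limit. The rule for choosing contigs was run on simulated data first. The software was Python 3.11.15 with matplotlib 3.10.9, pandas 2.3.3 and numpy 2.4.6.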

Additional observations from a re-analysis of the deposited data

How the results depend on the processing

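Each setting was changed alone, with the 292 contigs kept for pseudocount, scaling and limit and chosen again for the mean minimum. Counts of changes at 24 h are given as higher in LmHC, lower in LmHC, higher in LmLC, lower in LmLC, different toward LmHC and different toward LmLC, and were 57, 59, 46, 45, 15 and 10 as reported. Scaling to equal column totals and no filter on low values left these and the 292 (309 and 319) within 1.5 times. With median-of-ratios scaling 256 of the 292 still passed among 311, 28 were lower in LmHC and 25 different toward LmHC. With a pseudocount of 0.1, 1589 contigs passed, 83 and 90 were higher and lower in LmLC, and 57 and 44 different. With a pseudocount of 5, 29 passed, the counts were 26, 20, 17, 11, 8 and 1, and 1 cluster sum kept the difference (13 reported). With a 4-fold limit 13 passed, the counts were 18, 9, 18, 9, 0 and 0, and 0 cluster sums kept it. At a mean of at least 5 FPKM 96 passed, the counts were 26, 26, 26, 23, 5 and 3, and 2 cluster sums kept it. Beyond the construction of each setting, the cause was not tested. No paired analysis was possible because each group holds 1 library, and no library could be left out for the same reason. Low levels limit the precision: 196 of the 292 had a mean under 5 FPKM, where few fragments stand behind a value.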
